A study of Homo sapiens with 6 samples.

Results

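MHC class I peptide loading was followed through 10 genes in A375 melanoma cells with and without RIPK4. The genes were chosen by name as B2M, TAP1, TAP2, TAPBP, PSMB8, PSMB9, PSMB10, ERAP1, ERAP2 and NLRC5, not by a threshold on measured values. They account for 7 rows with the plain gene name and 22 rows of copies on alternate scaffolds, out of 20851 rows in the count table. A375 is an established human melanoma cell line. RNA-seq compared 3 libraries of A375RIPK4.KO cells, clone #1 of a RIPK4 knockout made with CRISPR/Cas9 and a lentiviral guide RNA, with 3 libraries of A375neg cells. The labels call the A375neg treatment a GFP control, and the methods describe a nontargeting guide RNA. No agent such as interferon is named for either group. The knockout libraries come from 1 clone, and only the A375neg labels name GFP. Loss of RIPK4, other differences of that clone and any difference in GFP therefore cannot be told apart. The labels do not say that replicates were separate cultures, whereas the study describes the libraries as biological replicates. The p-values measure the spread between these libraries.

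MHC class I molecules show peptides from inside the cell to CD8+ T cells and natural killer cells. The proteasome cuts proteins into peptides, the TAP transporter pumps them into the endoplasmic reticulum, aminopeptidases trim them there, and a loading complex fits them onto a heavy chain paired with beta-2 microglobulin. Interferons raise many of these genes together through STAT and IRF factors and through the transactivator NLRC5, and tumour cells often express them at low levels.

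Total counts were 21882863 to 26694140 per library, and 3 counts, the limit allowed by a count of 0, correspond to 0.112 to 0.137 CPM, a count scaled by library size. Such limits cover counting error only. RIPK4, the targeted gene, had 319, 368 and 404 raw counts in A375neg and 42, 51 and 61 in A375RIPK4.KO, a log2 fold change of -2.69 ± 0.17 (SE; edgeR adjusted p = 1.01e-05). Of 10 melanoma and melanocyte markers 7 were listed, MLANA, TYR and DCT were not, and their summed level was 387 to 428 CPM in A375neg and 334 to 352 CPM in A375RIPK4.KO, with 3 lower in the test. Of 12 leukocyte markers 7 were listed, at a summed 43.8 to 50.4 CPM in A375neg and 48.3 to 51.3 CPM in A375RIPK4.KO, and the lymphocyte markers CD3E, CD3D, CD2 and MS4A1 were not listed. Of 6 fibroblast markers 4 were listed, at 7.50 to 9.21 and 6.21 to 6.45 CPM, and of 5 keratinocyte markers 3 were listed, at 71.6 to 75.2 and 53.4 to 66.0 CPM. The part of these marker levels in the results below was not tested.

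The promoters of 3 members are shown, B2M and TAP1 because they hold matches to the interferon-stimulated response element and the kappa-B site, and PSMB9 because it faces TAP1. Each stretch is the 250 bases before the transcription start, from RefSeq on GRCh38.p14, 5′ to 3′ on the strand of the gene. B2M lies on the plus strand at chr15:44711267-44711516, TAP1 on the minus strand at chr6:32853705-32853954 and PSMB9 on the plus strand at chr6:32853942-32854191. Capitals mark matches, on either strand, to the interferon-stimulated response element (GAAA, any 2 bases, GAAA), the CRE core (TGACG), the CCAAT box (CCAAT) and the kappa-B site.
B2M: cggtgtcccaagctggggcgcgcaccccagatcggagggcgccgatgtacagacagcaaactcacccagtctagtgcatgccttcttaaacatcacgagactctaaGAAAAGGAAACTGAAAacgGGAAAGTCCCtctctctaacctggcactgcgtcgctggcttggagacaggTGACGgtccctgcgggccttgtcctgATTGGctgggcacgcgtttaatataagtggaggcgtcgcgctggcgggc
TAP1: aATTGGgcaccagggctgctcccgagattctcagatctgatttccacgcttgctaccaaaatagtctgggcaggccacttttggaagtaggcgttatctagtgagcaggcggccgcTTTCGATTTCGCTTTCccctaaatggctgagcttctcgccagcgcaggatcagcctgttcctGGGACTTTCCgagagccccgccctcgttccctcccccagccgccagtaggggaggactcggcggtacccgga
PSMB9: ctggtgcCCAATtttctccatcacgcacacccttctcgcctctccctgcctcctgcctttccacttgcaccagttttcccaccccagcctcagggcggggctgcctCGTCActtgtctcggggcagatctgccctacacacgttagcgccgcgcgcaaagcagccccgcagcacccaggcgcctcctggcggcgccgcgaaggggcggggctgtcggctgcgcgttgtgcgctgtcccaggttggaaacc

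In B2M, a pair of overlapping interferon-stimulated response elements began 144 and 138 bases before the start, a kappa-B match 125, a CRE core 75 and a CCAAT box 49 bases before it. In TAP1, a pair of overlapping response elements began 134 and 128 bases and a kappa-B match 72 bases before the start. TAP1 and PSMB9 run in opposite directions with 487 bases between them, so their stretches share 13 bases, and the CCAAT box at the far end of each is the same site. PSMB9 held a CRE core 144 bases before the start. A stretch was found for 9 of the 10 members, NLRC5 being the other.

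Among those 9 members, 5 held the interferon-stimulated response element (B2M, TAP1, TAP2, TAPBP and PSMB10), which 3.07% of 27305 RefSeq promoter stretches of the same length held. The CRE core was in 4 members (B2M, TAP2, PSMB8 and PSMB9) and 21.7% of all stretches, the CCAAT box in 4 (B2M, TAP1, PSMB9 and ERAP1) and 33.0%, and the kappa-B site in 4 (B2M, TAP1, TAPBP and ERAP1) and 5.05%. The gamma-activated sequence (TTCNNNGAA) was in 0 of the 9 members and 6.78% of all stretches. These are matches of letters only, and binding was not measured.

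None of the members passed the test between A375RIPK4.KO and A375neg on the plain-name rows. Of the 10 members, 7 had a plain-name row, and TAP1, TAPBP and PSMB8 had none. TAP2 and PSMB9 had a row with too few counts, which left 5 to be tested (B2M, PSMB10, ERAP1, ERAP2 and NLRC5). Of these 5, 0 had an adjusted p under 0.05 in edgeR, 0 had an unadjusted p under 0.05, and 0 passed in DESeq2. Over all 14443 rows tested, 16.6% passed in edgeR, and DESeq2 passed 15.7% of those it tested. The normalized counts of the groups overlapped in all 5 members, whereas they did not overlap in 36.5% of all rows tested. The median log2 fold change of the 5 was -0.06, beside -0.0047 over all rows tested. A test that misses the threshold does not show that the levels were equal, so each member's interval is given below. In RNA from whole cultures, fewer cells expressing a gene and less RNA per cell cannot be told apart.

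B2M encodes beta-2 microglobulin, the light chain of every MHC class I molecule (chr15:44711517-44718145). Its plain-name row held 579, 612 and 626 normalized counts in A375neg (counts scaled to a common library size) and 678, 615 and 585 in A375RIPK4.KO. The groups overlapped, and the highest and the second lowest of the 6 values were both knockout libraries. The fold change was 1.03 with a 95% interval of 0.906 to 1.18 (edgeR adjusted p = 0.752). This interval covers only the reads assigned to the plain-name row. With its scaffold copy summed, as given below, the log2 fold change was -0.80 (edgeR adjusted p = 0.217), and -0.01 without A375neg replicate 1.

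PSMB10 encodes the immunoproteasome subunit that replaces PSMB7 (chr16:67934506-67936850). It held 662, 709 and 639 normalized counts in A375neg and 562, 780 and 607 in A375RIPK4.KO. The knockout libraries held both the highest and the lowest value, and the fold change was 0.970, with an interval of 0.802 to 1.17 (edgeR adjusted p = 0.843).

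ERAP1 and ERAP2 are the aminopeptidases that trim peptides in the endoplasmic reticulum. ERAP1 (chr5:96760813-96935854) held 2232, 2191 and 2480 normalized counts in A375neg and 1955, 1992 and 2199 in A375RIPK4.KO. Only the highest knockout library reached into the control range, and the log2 fold change was -0.17 ± 0.07 (SE). The fold change was 0.891 with an interval of 0.793 to 1.0002, with an unadjusted p of 0.0503 and an adjusted p of 0.167 in edgeR.

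ERAP2 (chr5:96875984-96919716) held 140, 92.1 and 98.6 normalized counts in A375neg and 107, 64.7 and 87.2 in A375RIPK4.KO. The ranges overlapped, and the fold change was 0.784 with an interval of 0.531 to 1.16 (edgeR adjusted p = 0.389), the widest interval of the 5. The annotated spans of ERAP1 and ERAP2 overlap on opposite strands. The libraries were strand-specific, but the strand setting of the counting is not given in the sources used here, so the split of reads between these genes is uncertain.

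NLRC5 encodes the transactivator that acts at MHC class I promoters (chr16:56989557-57083520). It held 257, 257 and 235 normalized counts in A375neg and 234, 223 and 262 in A375RIPK4.KO. The highest value was a knockout library, and the fold change was 0.960 with an interval of 0.790 to 1.17 (edgeR adjusted p = 0.795). An exact permutation test over the 6 libraries (two-sided; smallest possible p 0.1) gave p = 0.6 for B2M, 0.8 for PSMB10, 0.2 for ERAP1, 0.4 for ERAP2 and 0.6 for NLRC5.

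**Figure D1:**
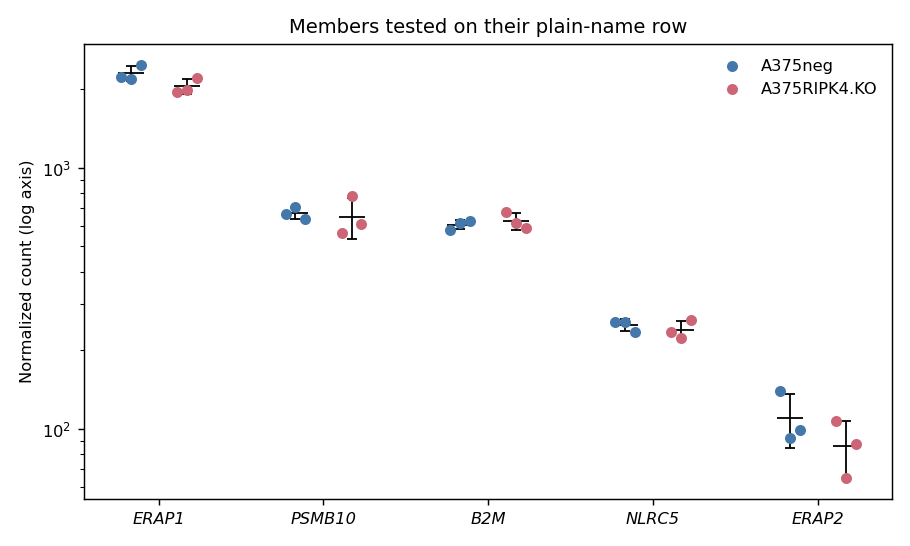
Normalized counts (log axis) of the 5 members tested on their plain-name row, with 1 point per library, 3 of A375neg (blue) and 3 of A375RIPK4.KO (red). Horizontal marks are group means and error bars are SD. The ranges of the groups overlap for each of the 5 genes, from ERAP1 at 1955 to 2480 down to ERAP2 at 64.7 to 140.

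Levels differed between members by more than they did between groups. Scaled to transcript length, in CPM per kilobase, A375neg held 22.4 ± 1.20 (SD, n = 3) of PSMB10, 17.1 ± 1.16 of ERAP1, 14.5 ± 0.573 of B2M, 1.49 ± 0.0756 of NLRC5 and 0.787 ± 0.186 of ERAP2. A375RIPK4.KO held 21.7 ± 3.85, 15.2 ± 0.976, 14.96 ± 1.13, 1.43 ± 0.118 and 0.617 ± 0.152 of the same genes. The order was the same in both groups, but the ranges of ERAP1 and B2M overlapped in A375RIPK4.KO, so that neighbouring pair did not differ there beyond its spread. The B2M value counts the plain-name row alone. Reads that align equally well to its scaffold copy may have been left out, so the B2M level and its place in this order are uncertain.

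The immunoproteasome subunits PSMB8, PSMB9 and PSMB10 replace the constitutive subunits PSMB5, PSMB6 and PSMB7 in that order. The constitutive subunits were all at a higher level per length than PSMB10, at 110, 104 and 264 CPM per kilobase in A375neg and 109, 109 and 286 in A375RIPK4.KO. Their log2 fold changes were -0.01 ± 0.08 for PSMB5, 0.07 ± 0.09 for PSMB6 and 0.11 ± 0.10 for PSMB7 (SE), and none of the 3 passed the test. PSMB9 held 1, 0 and 5 raw counts in A375neg and 0, 0 and 0 in A375RIPK4.KO on its plain-name row, at or near the limit of a count of 0. Of the counts given to PSMB9, 80.0% were on a scaffold copy, so this row cannot be set beside those of PSMB5, PSMB6 and PSMB7.

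Most of the reads given to TAP1, TAP2, TAPBP, PSMB8 and PSMB9 were on scaffold copies. These genes lie in the MHC on chromosome 6 (PSMB8 chr6:32840717-32844679, TAP1 chr6:32845209-32853704, PSMB9 chr6:32854192-32859851, TAP2 chr6:32821831-32838739 and TAPBP chr6:33299694-33314078), for which the reference holds several alternate versions. Copies held 100% of the counts used for TAP1, TAPBP and PSMB8, 99.5% for TAP2, 80.0% for PSMB9 and 32.4% for B2M, or 6.44% for B2M without A375neg replicate 1. HTSeq leaves out reads that align to more than 1 place unless told otherwise, and the setting used is not given in the sources used here. Each value of these genes, above or below, is therefore a count of reads assigned to these rows, not necessarily of all the transcripts of the gene.

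With the copies summed, 9 members were tested and again 0 passed in edgeR, with 2 at an unadjusted p under 0.05, beside 17.2% of all 14326 genes passing. DESeq2 passed 1, TAP2, beside 15.4% of the genes it tested. The normalized counts of the groups did not overlap in 2 of the 9, TAP2 and PSMB8, and in 36.6% of all genes tested. The median log2 fold change of the 9 was -0.27, beside -0.0040 over all genes. That median is the value of PSMB8, which became 0.08 without copies at least 5 times higher in 1 library than in the next. Under the same rule summed B2M moved from -0.80 to 0.05 and TAP2 from 0.99 to 0.49, whereas TAP1 and TAPBP hardly moved.

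TAP1 and TAP2 form the peptide transporter. TAP1 summed to 9, 45 and 13 raw counts in A375neg and 9, 10 and 19 in A375RIPK4.KO, and its copy TAP1_3 held 32 of the 45. The log2 fold change was -0.66 ± 0.61 (edgeR adjusted p = 0.508), and 0.31 without A375neg replicate 2. The interval ran from 0.245-fold to 1.62-fold.

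TAP2 summed to 68, 117 and 97 raw counts in A375neg and 149, 108 and 253 in A375RIPK4.KO, or 68.0 to 108 and 112 to 257 normalized counts. In normalized counts every knockout library was above every control library, narrowly at 112 against 108, whereas the raw counts overlapped (108 against 117). The log2 fold change was 0.99 ± 0.30, with an interval of 0.31 to 1.67 (edgeR adjusted p = 0.0514). The copies differed among themselves. TAP2_2, the copy with the highest mean count, held 55, 94 and 79 raw counts in A375neg and 85, 72 and 82 in A375RIPK4.KO. TAP2_7 held 150 in knockout replicate 3 and 0 to 6 in the other libraries, and TAP2_3 held 54 in knockout replicate 1 and 10 to 20 in the others. The groups overlapped on TAP2_2. In knockout replicate 3 most of the sum came from TAP2_7, whereas in knockout replicate 1 TAP2_2 held 85 counts and TAP2_3 54. The log2 fold change of the sum was 0.62 without knockout replicate 3 (adjusted p = 0.178) and 1.23 without knockout replicate 2 (0.00422). It was 0.49 without copies at least 5 times higher in 1 library than in the next (0.195), a rule that left out TAP2_7 but kept TAP2_3. DESeq2 gave an adjusted p of 0.00922 and edgeR without a filter on low counts 0.0398. On the plain-name row TAP2 held 0 to 2 raw counts in every library.

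TAPBP encodes tapasin, which tethers MHC class I molecules to the transporter. It summed to 63, 15 and 13 raw counts in A375neg and 18, 5 and 17 in A375RIPK4.KO, and TAPBP_3 held 53 of the 63. The log2 fold change was -1.07 ± 0.70 (edgeR adjusted p = 0.353), and 0.10 without A375neg replicate 1. A single control library set the direction.

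PSMB8 summed to 94, 143 and 99 raw counts in A375neg and 84, 83 and 85 in A375RIPK4.KO. In the highest library, A375neg replicate 2, the copy PSMB8_7 held 73 counts, against 0 or 1 elsewhere. PSMB8_3 held 91, 68 and 95 counts in A375neg and 81, 77 and 83 in A375RIPK4.KO. The log2 fold change of the sum was -0.27 ± 0.19 (edgeR adjusted p = 0.395) and 0.08 with PSMB8_7 left out. PSMB9 summed to 3, 6 and 10 raw counts in A375neg and 2, 5 and 4 in A375RIPK4.KO, too few for the low-count filter of the main test.

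B2M summed to 2136, 719 and 709 raw counts in A375neg and 654, 624 and 618 in A375RIPK4.KO. Its 1 copy, B2M_1, held 1557 counts in A375neg replicate 1 and 34 to 55 in the other 5 libraries. The log2 fold change of the sum was -0.80 ± 0.40 (edgeR adjusted p = 0.217), -0.01 without A375neg replicate 1 and 0.05 without B2M_1. In that library the plain-name row stood at the lowest of the 6 normalized values, 579.

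**Figure D2:**
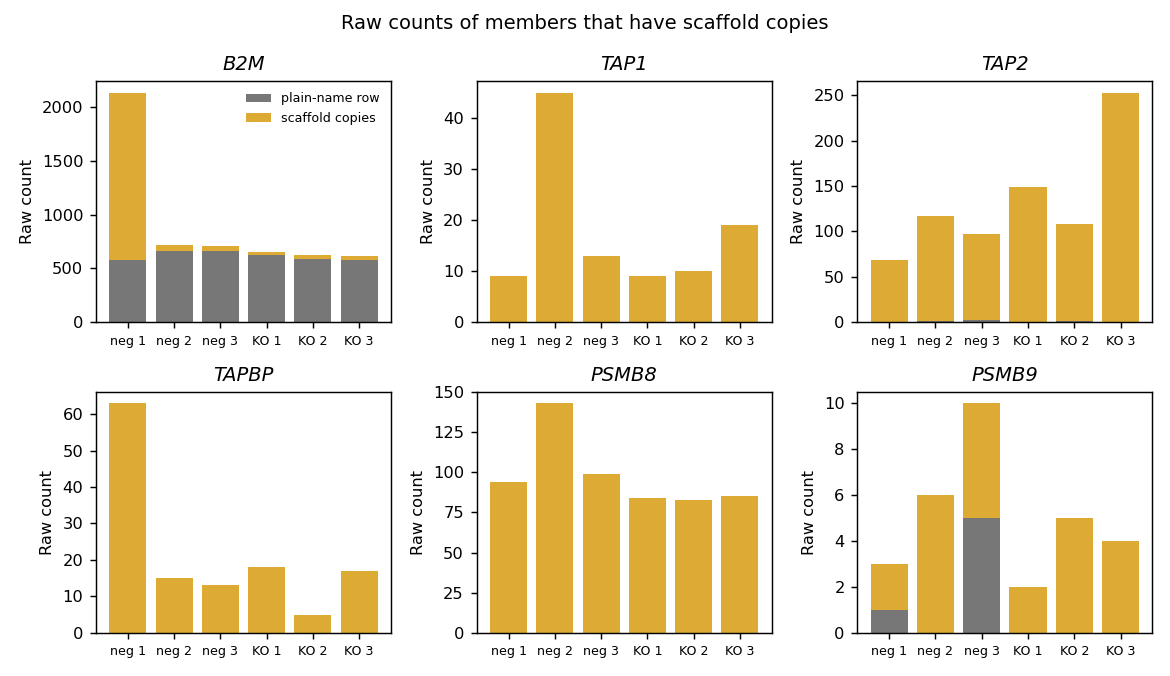
Raw counts per library of the 6 members that have scaffold copies, with the plain-name row in grey and the copies in yellow, each panel on its own axis from 0. A375neg replicate 1 stands out for B2M (2136) and TAPBP (63), A375neg replicate 2 for TAP1 (45) and PSMB8 (143), and A375RIPK4.KO replicate 3 for TAP2 (253).

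Scaffold copies were less even between libraries than plain-name rows over the whole table. Of 262 copy rows with at least 50 counts in a library, 49 (18.7%) had 1 library with at least 5 times the count of the next, against 21 of 12106 plain-name rows (0.173%). Among the members this held for 3 of 7 copy rows (B2M_1, TAP2_7 and PSMB8_7) and 0 of 5 plain-name rows. The median biological coefficient of variation was 34.6% for the 324 copy rows tested and 10.8% for the 14119 plain-name rows. These medians were not matched for count level, and the part of count level in their difference was not tested. The 5 genes whose log2 CPM followed summed TAP1 most closely over the 6 libraries were APPL2, COG1, SCAMP3, SURF4 and KIFC1 (Pearson r 0.957 to 0.970, a description only), and the TAP1 pattern itself rests largely on A375neg replicate 2.

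**Figure D3:**
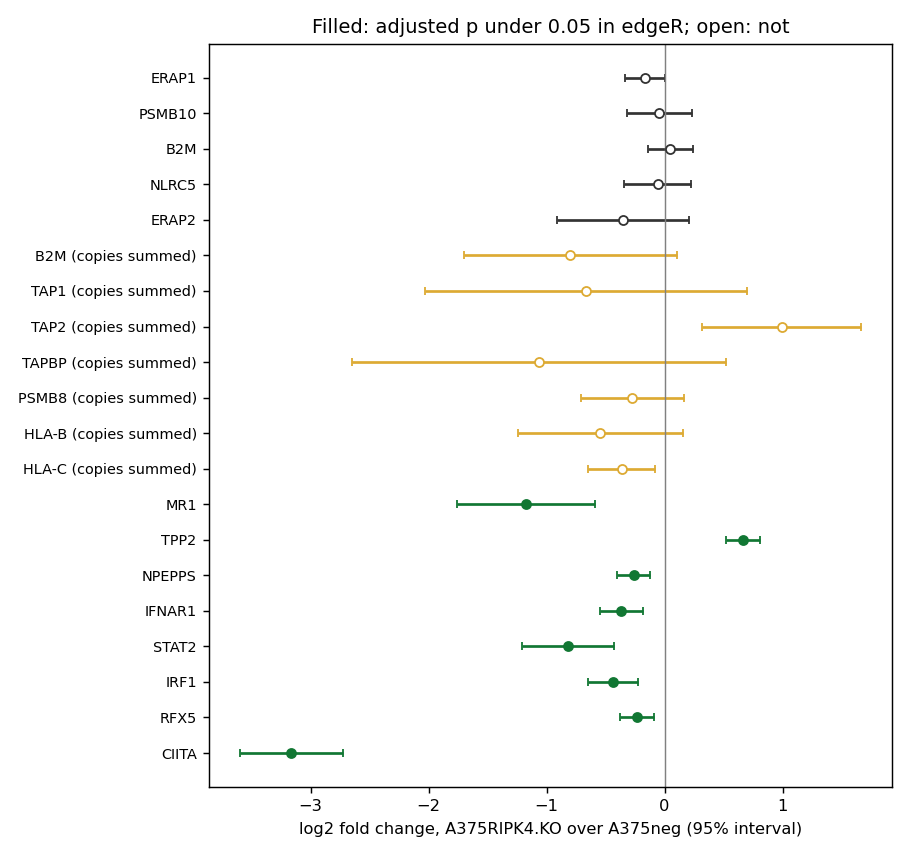
log2 fold change of A375RIPK4.KO over A375neg with its 95% interval (edgeR), for members on plain-name rows (black), members and heavy chains with copies summed (yellow), and the partner and regulator genes that passed (green). Filled points passed at an adjusted p under 0.05. No member is filled, summed TAP2 lies at 0.99 with an interval above 0, and CIITA lies lowest at -3.16.

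Among 24 heavy chain and partner genes, 18 were tested on plain-name rows, 1 was higher and 2 were lower in A375RIPK4.KO, beside 8.4% higher and 8.24% lower over all rows. The list's median log2 fold change was -0.05. TPP2, a cytosolic peptidase that can act on proteasome products, rose from 1488, 1432 and 1477 normalized counts to 2263, 2219 and 2485. The groups were well apart, and the fold change was 1.58 with an interval of 1.43 to 1.76 (edgeR adjusted p = 0.000157).

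MR1, an MHC class I-like molecule that presents microbial vitamin metabolites, held 69.0, 76.5 and 110 normalized counts in A375neg and 31.7, 36.5 and 44.6 in A375RIPK4.KO. Its groups did not overlap, and the fold change was 0.443 (interval 0.295 to 0.665; edgeR adjusted p = 0.0139, and 0.0593 without A375neg replicate 3). NPEPPS, the puromycin-sensitive aminopeptidase of the cytosol, held 2895 to 3071 normalized counts in A375neg and 2369 to 2592 in A375RIPK4.KO, a fold change of 0.835 (adjusted p = 0.0204). The NPEPPS call was lost without A375neg replicate 1 (0.0886), A375neg replicate 2 (0.0966) or knockout replicate 3 (0.0517).

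The chaperones of the loading complex did not pass. CALR (calreticulin) had a log2 fold change of -0.13 ± 0.08 and PDIA3 (the oxidoreductase ERp57) of -0.02 ± 0.06. CANX (calnexin) held 339 raw counts in A375neg replicate 1 and 39 to 59 elsewhere on its plain-name row, and with copies summed 1893, 3523 and 1919 in A375neg and 1632, 1376 and 1882 in A375RIPK4.KO (log2 fold change -0.44 ± 0.21, edgeR adjusted p = 0.193).

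The heavy chains HLA-B and HLA-C are related genes with many scaffold copies, so their counts are uncertain. HLA-C summed to 1946, 2123 and 2351 normalized counts in A375neg and 1325, 1837 and 1829 in A375RIPK4.KO. All knockout values were below all control values, and the log2 fold change was -0.36 ± 0.12 (edgeR adjusted p = 0.0808). HLA-C passed in DESeq2 (0.0318) and in edgeR without knockout replicate 2 (0.0235). HLA-B summed to 1037, 477 and 794 against 330, 735 and 513. Its groups overlapped widely, with a log2 fold change of -0.55 ± 0.31 (edgeR adjusted p = 0.277, and 0.0474 without knockout replicate 2).

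Of 42 proteasome genes, 40 were tested and 0 passed in edgeR, with 6 at an unadjusted p under 0.05 and 0 of 39 passing in DESeq2, beside 16.6% of all rows in edgeR and 15.7% in DESeq2. Leaving out A375neg replicate 3, knockout replicate 1 or knockout replicate 2 gave 1 call each. Their median log2 fold change was 0.07. PSME1 and PSME2 encode the proteasome activator that interferon induces. PSME2 held 918, 833 and 743 normalized counts in A375neg and 909, 1179 and 704 in A375RIPK4.KO, which overlap. PSME1 held 12, 127 and 577 raw counts in A375neg and 461, 839 and 348 in A375RIPK4.KO, a spread within A375neg that left an interval of -0.55 to 3.25 on the log2 scale.

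Of 36 regulators of the pathway, 32 were tested on plain-name rows, and 5 were lower and 0 higher in A375RIPK4.KO in edgeR, beside 8.24% lower, 8.4% higher and 16.6% in either direction over all rows; 9 had an unadjusted p under 0.05, and DESeq2 passed 5 of 35. The list's median log2 fold change was -0.0083. With a minimum of 1.5-fold, 2 regulators passed, CIITA and STAT2, beside 9.04% of all rows in either direction. The count was 2 to 9 when 1 library was left out, lowest without A375neg replicate 1 and highest without knockout replicate 2, and 3 without A375neg replicate 2, A375neg replicate 3 or knockout replicate 3.

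CIITA, the MHC class II transactivator and a relative of NLRC5, held 1532, 1376 and 1484 normalized counts in A375neg and 201, 104 and 186 in A375RIPK4.KO. The groups were far apart, with a fold change of 0.112 (interval 0.0828 to 0.151; edgeR adjusted p = 8.98e-06). NLRC5, given above, had a fold change of 0.960. The difference between these fold changes was not tested.

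STAT2 and IRF1 are transcription factors of the interferon response. STAT2 held 601, 496 and 524 normalized counts in A375neg and 351, 221 and 349 in A375RIPK4.KO, a fold change of 0.568 (edgeR adjusted p = 0.0113, and 0.0526 without A375neg replicate 1). IRF1 held 681, 726 and 620 against 471, 542 and 485, a fold change of 0.739 (adjusted p = 0.0118, and 0.0668 without A375neg replicate 2 or 0.0541 without knockout replicate 3). In both genes every knockout library was below every control library.

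IFNAR1, a subunit of the type I interferon receptor, held 1681, 1440 and 1667 normalized counts in A375neg and 1252, 1162 and 1299 in A375RIPK4.KO, a fold change of 0.775 (edgeR adjusted p = 0.0137, and 0.0672 without A375neg replicate 1 or 0.0631 without A375neg replicate 3). RFX5, part of the complex with which NLRC5 and CIITA act, held 3306 to 3348 against 2686 to 3040, a fold change of 0.850 (adjusted p = 0.0363). The RFX5 call held without knockout replicate 2 (0.00203) and was lost when any other single library was left out (0.0994 to 0.129) or when low counts were not filtered (0.0572), where 4 regulators passed.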

How the data were processed

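Libraries were enriched for poly(A) RNA and kept strand information, and an outside provider sequenced and counted them. Raw counts per gene, as whole numbers, are the deposited values used here, and the normalized counts and test results that the authors give beside them were not used. The submitters' processing notes name cutadapt, FastQC, HISAT2, HTSeq, DESeq2 and the GRCh38.p13 build, with no versions or settings. The lowest total of a listed row was 4 counts.

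The groups were compared with the quasi-likelihood test of edgeR 4.0.16 (R 4.3.3), after TMM scaling and filterByExpr, and p-values were adjusted over every row tested by the Benjamini-Hochberg method, with calls at an adjusted p under 0.05. Alternatives were DESeq2 1.42.0, edgeR with the DESeq2 size factors, the test without the low-count filter, a 1.5-fold minimum, each library left out, the replicate number as a block and, chosen after seeing the data, omission of copies at least 5 times higher in 1 library than in the next. The steps were tested on simulated data. Figures used matplotlib 3.10.9.

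Copies were summed to the gene of the same name, also for TAP1, TAPBP and PSMB8, for which the counts used here held no plain-name row. Levels per kilobase used the longest principal transcript of GENCODE. Named genes are all members, each gene of a list that passed, reference genes such as PSMB5 to PSMB7, HLA-B and HLA-C, and the 5 genes (mean of at least 50 counts) most like summed TAP1 in log2(CPM + 1). PSME1, PSME2, CALR, PDIA3 and CANX were added after their values were seen. Results of some listed genes are not reported here. The members, lists and tests were chosen with earlier results of these data known.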

Additional observations from a re-analysis of the deposited data

How the results depend on the processing

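No member passed on plain-name rows under any alternative run. With copies summed, the count was 1 with DESeq2 and 1 with no filter on low counts (TAP2 each time), and 0 to 1 with a library left out. Proteasome calls ranged from 0 to 1 and regulator calls from 2 to 9 with a library left out, and 2 regulators passed with a 1.5-fold minimum. Replicate numbers did not pair the samples (correlations of deviations 0.0823, 0.0357 and -0.012), and with the replicate number as a block 0 members passed, 6 regulators passed, and summed HLA-C passed (adjusted p = 0.0119).

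Of 251 log2 fold changes recomputed, 215 kept their direction and side of the threshold, 15 lost the call, 7 gained it and 14 changed sign. The sign of B2M changed when its copy was summed (-0.80), and without copies high in 1 library summed B2M turned to 0.048 and summed PSMB8 to 0.076. The other changes of sign came from leaving out 1 library, over which the values ranged from -0.011 to 0.095 for B2M (negative without A375RIPK4.KO replicate 1), -0.193 to 0.051 for PSMB10 (positive without knockout replicate 1 or 3), -0.082 to 0.042 for PSMB5 (negative in the full data), -0.029 to 0.168 for PSMB6 and -0.013 to 0.184 for PSMB7 (both negative without knockout replicate 2). With copies summed they ranged from -1.04 to 0.31 for TAP1 (positive without A375neg replicate 2) and -1.44 to 0.0995 for TAPBP (positive without A375neg replicate 1). Apart from plain-name B2M with its copy summed, the values that changed sign lie within the 95% intervals of these genes, and the cause was not tested. PSMB9 had too few counts for the low-count filter even with copies summed. It was tested only in DESeq2 and in edgeR without that filter, and did not pass in either.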
